A study of Homo sapiens with 14 samples.

Results

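SATB1 and Matrin 3 are nuclear proteins that were each mapped on the chromatin of Jurkat cells, an established human line from a T cell acute lymphoblastic leukaemia, and the question taken up here is how far their strongest sites are the same. The 4 libraries compared, of 14 in the series, were 2 for SATB1 and 2 for Matrin 3. They were made by CUT&Tag, in which an antibody tethers a transposase that cuts and tags the DNA nearby. The SATB1 cells carried a lentiviral control shRNA (shCtrl, genotype control), while the Matrin 3 labels name the Jurkat line and no shRNA, so the proteins and this difference in treatment cannot be told apart. H3K27ac (2 libraries) and CTCF (3 libraries) from shCtrl cells served as context, and the libraries with SATB1 knockdown (shSATB1) were not used here. From each list the 2105 peaks of highest maximum signal were taken, which is the length of the shortest list and 2105 of 15210, 14726, 24566 and 2105 peaks kept on chromosomes 1 to 22 and X. These top peaks merged, at an overlap of 1 bp, into 4504 sites.

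SATB1 binds AT-rich DNA that unwinds readily, is most abundant in developing T cells and is known for folding T cell loci into loops. Matrin 3 is an RNA- and DNA-binding protein of the nuclear matrix, the insoluble scaffold left after nuclear extraction, and is best known for its part in RNA splicing. CTCF binds insulators and the anchors of chromatin loops, and H3K27ac marks active promoters and enhancers.

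The sites of the 2 proteins differed in kind, and 6 promoters show the kinds met below. HNRNPA2B1 (an RNA-binding splicing protein) and CTCF had a top peak of all 4 lists. H2BC17 (a histone of the H2B family) and CD1C (a lipid-presenting surface protein of thymocytes) had one in both SATB1 lists and in no Matrin 3 list. STAG1 (a cohesin subunit) and TPR (a nuclear pore protein) had one in both Matrin 3 lists and in no SATB1 list. Each sequence runs 5′ to 3′ from 250 bases before to 50 after a RefSeq start of the gene (GRCh38.p14, on the gene's strand). Capitals mark the CCAAT box (CCAAT), the GC box (GGGCGG), the octamer (ATTTGCAT) and the TATA box (TATAAA), each searched on both strands.
HNRNPA2B1, chr7:26200697-26200996, minus strand: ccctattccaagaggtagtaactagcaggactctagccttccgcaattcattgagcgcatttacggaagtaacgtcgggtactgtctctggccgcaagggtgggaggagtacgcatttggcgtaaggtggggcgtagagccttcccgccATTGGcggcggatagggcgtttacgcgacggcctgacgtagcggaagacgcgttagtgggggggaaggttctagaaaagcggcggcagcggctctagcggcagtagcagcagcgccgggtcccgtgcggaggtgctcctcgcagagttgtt
CTCF, chr16:67562276-67562575, plus strand: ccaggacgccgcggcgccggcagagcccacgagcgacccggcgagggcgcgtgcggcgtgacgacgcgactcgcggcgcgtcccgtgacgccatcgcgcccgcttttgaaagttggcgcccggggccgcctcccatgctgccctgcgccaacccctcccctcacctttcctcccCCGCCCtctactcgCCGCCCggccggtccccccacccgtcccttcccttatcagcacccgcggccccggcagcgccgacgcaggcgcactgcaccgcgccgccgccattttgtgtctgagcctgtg
H2BC17, chr6:27893175-27893474, plus strand: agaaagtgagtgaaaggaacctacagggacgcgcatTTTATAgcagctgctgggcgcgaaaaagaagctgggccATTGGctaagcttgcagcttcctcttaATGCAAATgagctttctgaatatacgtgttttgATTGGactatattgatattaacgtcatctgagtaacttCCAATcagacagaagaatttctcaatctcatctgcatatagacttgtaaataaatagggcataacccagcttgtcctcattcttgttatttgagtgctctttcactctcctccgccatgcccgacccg
CD1C, chr1:158289673-158289972, plus strand: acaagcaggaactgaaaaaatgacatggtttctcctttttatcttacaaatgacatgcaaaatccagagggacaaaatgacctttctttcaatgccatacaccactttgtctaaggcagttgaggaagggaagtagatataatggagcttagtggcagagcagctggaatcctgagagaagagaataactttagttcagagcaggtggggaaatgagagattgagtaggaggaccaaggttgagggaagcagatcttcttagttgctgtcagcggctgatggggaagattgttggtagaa
STAG1, chr3:136752329-136752628, minus strand: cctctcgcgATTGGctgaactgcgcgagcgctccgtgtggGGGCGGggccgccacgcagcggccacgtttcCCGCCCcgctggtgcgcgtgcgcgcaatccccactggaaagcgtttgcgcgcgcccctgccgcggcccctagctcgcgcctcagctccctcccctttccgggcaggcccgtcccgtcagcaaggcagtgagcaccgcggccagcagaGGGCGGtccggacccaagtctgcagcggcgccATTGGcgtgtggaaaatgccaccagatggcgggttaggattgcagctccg
TPR, chr1:186375204-186375503, minus strand: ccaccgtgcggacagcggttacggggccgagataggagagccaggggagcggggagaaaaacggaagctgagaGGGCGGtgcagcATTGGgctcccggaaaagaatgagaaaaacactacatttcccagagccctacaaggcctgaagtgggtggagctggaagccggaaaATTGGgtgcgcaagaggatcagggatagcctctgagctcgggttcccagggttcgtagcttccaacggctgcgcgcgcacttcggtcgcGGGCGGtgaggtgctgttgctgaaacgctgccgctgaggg
H2BC17 and CD1C are poorer in G and C (43% each) than STAG1 (71.3%), CTCF (75.3%), TPR (61.3%) and HNRNPA2B1 (60.3%). H2BC17 holds the octamer, the site of histone H2B promoters that the factor OCT1 is known to bind. Its TATA word is on the opposite strand and far from the start, so it is a match of letters only. None of the 4 words is in the CD1C window.

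Both SATB1 lists gave 6001 peaks with an identical first base (40.8% of replicate 2), whereas the next most alike pair of the lists used here had 0.890% in common. They were therefore averaged and counted as 1 sample. A comparison of SATB1 with Matrin 3 is then 1 sample against 2, and a two-sided exact permutation test cannot give a p under 0.333. The labels do not tell whether replicates were separate cultures, and the spread between libraries may be technical. The Matrin 3 lists stood apart from each other in length (24566 and 2105 peaks) and in median top-peak width (1476 and 535 bp). The signal is the authors' own, with no scaling recorded, and read depth is unknown, so peaks were ranked within a list only. At the lowest top peak the maximum signal was 30 in both SATB1 lists, 79 in Matrin 3 replicate 1 and 4 in replicate 2. The cell type label was checked on H3K27ac: an H3K27ac region lay at an end of 8 of 8 T cell markers, 5 of 12 B cell, 2 of 14 myeloid, 1 of 12 epithelial and 1 of 12 neuronal markers.

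The highest Matrin 3 peaks lay mostly at gene ends and the highest SATB1 peaks mostly elsewhere. A gene end is either annotated end of 1 of 19974 protein-coding genes, and a peak within 2 kb of it is counted as at that end. For SATB1 the share of top peaks at gene ends was 32.9% and 32.3%. For Matrin 3 it was 77.7% in replicate 1 and 59.0% in replicate 2. Both Matrin 3 libraries were above both SATB1 libraries, and the groups did not overlap. The difference of the means, 32.6% for SATB1 and 68.3% ± 13.3 (SD, n = 2) for Matrin 3, was -35.7 percentage points, with the smallest p that this exact permutation test allows (0.333). With annotated 5′ ends alone, where transcription starts, the shares averaged 28.6% and 63.2% ± 12.6. Outside genes lay 631 and 638 of the 2105 SATB1 peaks (mean 30.1%), against 6.89% and 11.2% of the Matrin 3 lists. Peaks inside genes but away from their ends made up 37.1% and 37.4% for SATB1, 15.4% for Matrin 3 replicate 1 and 29.8% for replicate 2. Set against the other marks at the same number of peaks, SATB1 was nearer to H3K27ac (37.8% at gene ends in both libraries) and Matrin 3 nearer to CTCF (71.0% to 71.7%). The peaks of those marks are wider, with medians of 5967 to 6063 bp and 3713 to 4071 bp. Gene-end shares of these marks at equal width were not compared.

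**Figure D1:**
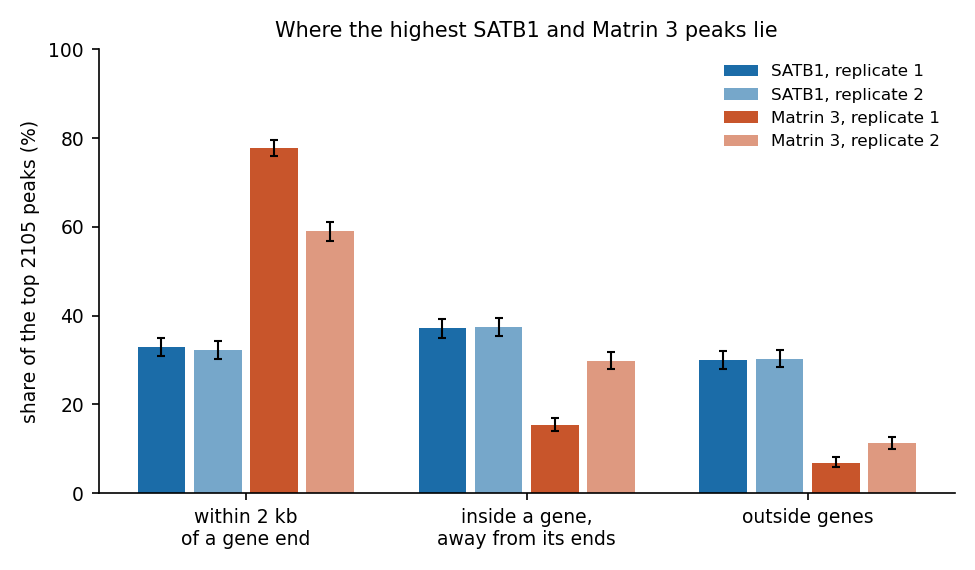
Share of the top 2105 peaks of each list (y axis, percent) that lie within 2 kb of a protein-coding gene end, inside a gene away from its ends, or outside genes; bars are single libraries and error bars are 95% Wilson intervals. The Matrin 3 libraries stand at 77.7% and 59.0% at gene ends and the SATB1 libraries at 32.9% and 32.3%, while outside genes the order is turned round.

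The place of the peaks shifted with rank in Matrin 3 and little in SATB1. In Matrin 3 replicate 1 the gene-end share was 87% among the highest 500 peaks, 55.8% at ranks 2106 to 5000 and 33.5% at ranks 10001 to 14726. In SATB1 replicate 1 it was 26.6% among the highest 500, 34.9% at ranks 2106 to 5000 and 28.6% at ranks 10001 to 14726. The contrast between the proteins was thus widest among their highest peaks. With the 14726 highest peaks of the 3 longer lists, an alternative chosen after the data were seen, the difference was -15.5 percentage points.

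Most top peaks of both proteins met an H3K27ac region, by an overlap of at least 1 bp. Such a region (called in both H3K27ac lists) overlapped 84.5% and 84.9% of SATB1 top peaks. It overlapped 90.8% of those of Matrin 3 replicate 1 and 72.1% of replicate 2. In the whole lists the shares were lower, at 72.6% and 73.5% for SATB1 and 64.2% for Matrin 3 replicate 1. The SATB1 values fall between the 2 Matrin 3 values, and the difference of the means (84.7% against 81.5% ± 13.2) gave p = 1 in the exact permutation test; without Matrin 3 replicate 2 it reversed, to -6.10 points. A CTCF region (called in at least 2 of 3 CTCF lists) overlapped 81.6% of top peaks in both SATB1 lists, 99.5% in Matrin 3 replicate 1 and 78.7% in replicate 2. This difference too (81.6% against 89.1% ± 14.7, exact permutation p = 1) turned with the library, to 2.87 points higher for SATB1 without Matrin 3 replicate 1. Peaks with only 1 of the 2 marks separated the groups, in opposite directions. Those with H3K27ac and no CTCF were 8.46% and 8.74% of the SATB1 lists and 0.285% and 0.713% of the Matrin 3 lists. The means were 8.60% and 0.499% ± 0.302 (exact permutation p = 0.333, the smallest possible). Those with CTCF and no H3K27ac were 5.56% and 5.37% of the SATB1 lists and 8.98% and 7.32% of the Matrin 3 lists, with the same exact permutation p. Median width was 1580 and 1546 bp for SATB1 against 1476 and 535 bp for Matrin 3 (means 1563 and 1006 bp ± 665, exact permutation p = 0.667). Matrin 3 replicate 2 alone made most of that gap, which measured 87 bp without it.

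The highest sites of the 2 proteins were largely different ones. Of the top peaks of a SATB1 list, 28.4% to 33.2% overlapped a top peak of a Matrin 3 list, and the reverse shares were 28.7% to 33.1%. The mean over all pairs of libraries was 30.8%. Within a protein the overlap was 89.4% and 89.8% for SATB1 and 55.0% and 55.2% for Matrin 3, so each pair within a protein overlapped more than any pair across proteins. The SATB1 lists may come from 1 library or from pooled reads, given their identical starts, so their likeness to each other, here and below, is no measure of replicate error. The Matrin 3 pair is the one to set beside the values across proteins. Overlap across proteins fell towards the top of the lists. Of the highest 100 peaks of SATB1 replicate 1, 6% overlapped one of the highest 100 of Matrin 3 replicate 1. The share was 18.8% at 500 peaks, 32.9% at 2105, 46.5% at 5000 and 61.0% at 14726. The same step within SATB1 stayed near its level (93% at 100 peaks and 89.4% at 2105), as did that within Matrin 3 (59% and 55.0%).

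**Figure D2:**
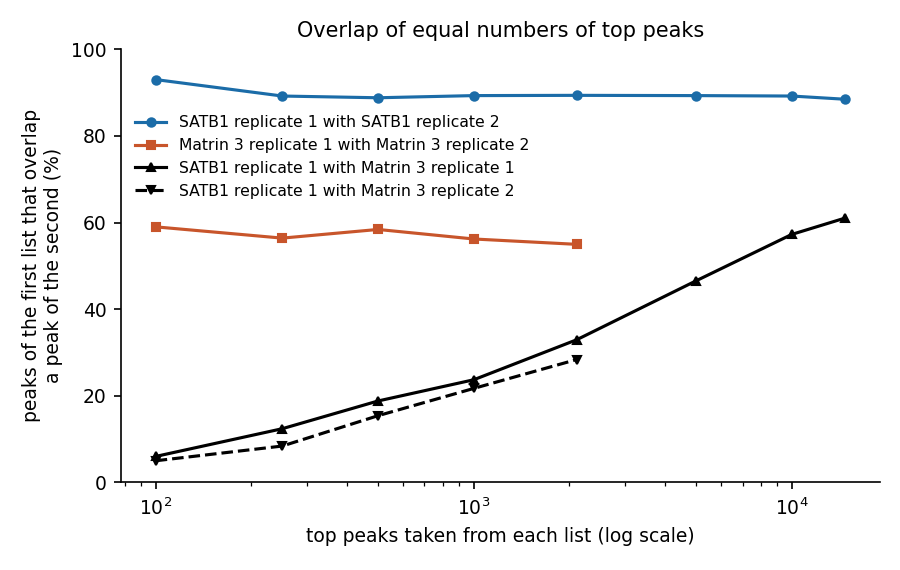
Share of the top peaks of the first list (y axis, percent) that overlap a top peak of the second by at least 1 bp, for equal numbers of peaks from each list (x axis, log scale). The curves across proteins start at 6% and 5% with 100 peaks and climb, while those within SATB1 (93% at 100 peaks) and within Matrin 3 (59%) run nearly level.

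Most of the separate sites had a peak of the other protein at a lower rank. For SATB1 sites this rests on the long list of Matrin 3 replicate 1 alone. That whole list held a peak at 93.7% and 93.9% of SATB1 top peaks. The whole list of Matrin 3 replicate 2, which is its top list, held one at 28.4% and 28.5%. The whole SATB1 lists held one at 90.9% and 90.3% of the top peaks of Matrin 3 replicate 1 and at 71.9% and 71.1% of those of replicate 2. Between the longer lists the top peaks of the proteins thus differed in order more than in presence. Lower in the lists presence differed too. At ranks 10001 to 14726, 67.0% of SATB1 replicate 1 peaks met a peak of the whole list of Matrin 3 replicate 1. In the same ranks of Matrin 3 replicate 1, 44.0% met a peak of the whole list of SATB1 replicate 1.

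A SATB1 peak at a gene end was met by Matrin 3 far more often than one elsewhere. Of SATB1 replicate 1 top peaks at gene ends, 70.1% (95% Wilson interval 66.6 to 73.4, counting error only, as for all such intervals here) overlapped a top peak of Matrin 3 replicate 1, and 59.6% (55.9 to 63.2) one of replicate 2. Inside genes away from ends the shares were 17.9% and 15.0%, and outside genes 10.6% in both. The split held among peaks that carried both H3K27ac and CTCF: 72.2% and 60.9% at gene ends against 20.5% and 17.7% away from them. SATB1 peaks with neither mark met Matrin 3 in 1 and 3 of 209 cases (0.478% and 1.44%). From the side of Matrin 3 the order over all peaks differed between the libraries. SATB1 replicate 1 met 29.6% of the gene-end peaks and 46.2% of the peaks outside genes of Matrin 3 replicate 1, but 33.0% and 28.8% of those of replicate 2. Among Matrin 3 peaks with both marks the order was the reverse of that for SATB1 in both libraries. SATB1 replicate 1 met 31.4% at gene ends and 47.3% away from them in Matrin 3 replicate 1. In replicate 2 it met 35.2% and 46.1%.

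The 4504 merged sites fell into 467 shared sites (10.4%, with a top peak of all 4 lists), 1174 SATB1-only sites (26.1%, both SATB1 lists and no Matrin 3 list) and 599 Matrin 3-only sites (13.3%, both Matrin 3 lists and no SATB1 list). The other 2264 had peaks in a mixed set of lists, among them 844 of Matrin 3 replicate 2 alone and 744 of replicate 1 alone. With 1 Matrin 3 library left out, Matrin 3-only sites numbered 1446 (without replicate 1) and 1343 (without replicate 2). In their shares at gene ends and in CTCF and H3K27ac regions, shared sites were nearer to Matrin 3-only sites than to SATB1-only sites. By definition both of these classes hold a top peak of Matrin 3 replicate 1. Of that library's top peaks 99.5% lay in a CTCF region, 90.8% in an H3K27ac region and 77.7% at gene ends. The likeness thus follows largely from how the classes were made. Gene ends held 75.6% (71.5 to 79.3) of shared sites, 84.3% (81.2 to 87.0) of Matrin 3-only sites and 12.9% (11.1 to 14.9) of SATB1-only sites. The median distance to the nearest gene end was 0 kb for shared sites and for Matrin 3-only sites, and 32.5 kb for SATB1-only sites. A CTCF region overlapped 100% of shared, 99.5% of Matrin 3-only and 71.6% of SATB1-only sites. An H3K27ac region overlapped 95.9%, 89.8% and 78.8%. These shares describe sites of the same few libraries, which are not replicates, and carry no test.

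**Figure D3:**
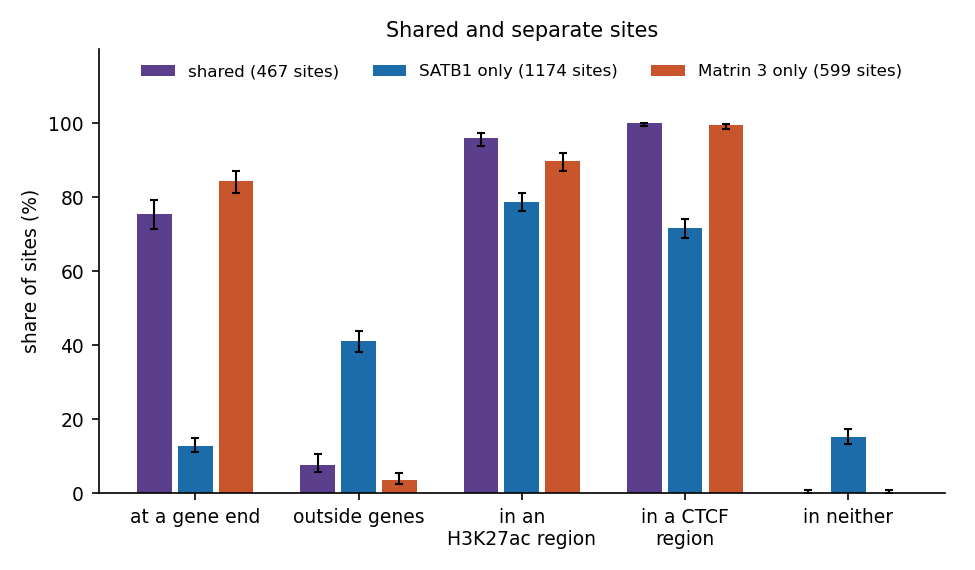
Share of sites of each class (y axis, percent) at a gene end, outside genes, in an H3K27ac region, in a CTCF region and in neither region; error bars are 95% Wilson intervals. At gene ends the SATB1-only sites stand at 12.9%, against 75.6% of shared and 84.3% of Matrin 3-only sites, and only the SATB1-only bar rises visibly in the last group (15.2%).

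Wide sites belonged mostly to SATB1. Of the SATB1-only sites 101 (8.60%) were over 5000 bp wide, of the shared sites 13 (2.78%) and of the Matrin 3-only sites 0 of 599. Medians were closer, at 1884, 1807 and 1541 bp. Chromosome 19, which is dense in genes, held 11.1% of shared sites, 3.84% of Matrin 3-only and 1.45% of SATB1-only sites, beside 7.26% of protein-coding genes.

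Where the 2 proteins shared a site, their maxima nearly coincided while their ranks did not. Between a SATB1 and a Matrin 3 library the median distance of the maxima was 36 to 60 bp over the 467 shared sites. Within SATB1 it was 3 bp and within Matrin 3 49 bp. Spearman's rho of the ranks over these sites was 0.121 to 0.176 across proteins, 0.703 within Matrin 3 and 0.929 within SATB1. These are descriptions across sites of 4 libraries, with no test.

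The shared sites of lowest mean rank at gene ends were those of VMAC, SCAF1, GTPBP1, VCPIP1, ELL, TLE4, TFB1M and PLAUR. The site at VMAC and its neighbour NDUFA11, a subunit of respiratory complex I, lay on chromosome 19 at 5903681 to 5905167 (GRCh38). It ranked 73 and 76 in the SATB1 lists and 5 and 3 in the Matrin 3 lists, with maximum signals of 101 and 100, and of 539 and 36. ELL encodes an elongation factor of RNA polymerase II, and its site on chromosome 19 (18521595 to 18523000) ranked 126 and 129 for SATB1 and 7 and 17 for Matrin 3. GTPBP1, a GTP-binding protein, was the most even of the 8, with ranks 48 and 47 against 46 and 64 on chromosome 22 (38704827 to 38706487). TLE4, a Groucho-type corepressor, had ranks 160 and 128 against 40 and 46. PLAUR, the urokinase receptor, had 186 and 161 against 20 and 36. TFB1M, which methylates mitochondrial ribosomal RNA, had 105 and 111 against 84 and 79. SCAF1 and its neighbour RRAS shared a site with ranks 83 and 72 against 41 and 8, and VCPIP1, a deubiquitinase, had 78 and 74 against 19 and 60. At each of the 8 sites Matrin 3 replicate 1 gave a lower number, that is, a higher place, than both SATB1 lists. Every one of the 8 lay in an H3K27ac and a CTCF region. Away from gene ends, a site inside RTN4, an endoplasmic reticulum shaping protein, ranked 38 and 38 for SATB1 and 9 and 9 for Matrin 3, the lowest mean rank of all shared sites; it was chosen after its values were seen.

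Few sites were high for 1 protein and missing from the whole lists of the other. This held for 112 of the 1174 SATB1-only sites and for 39 of the 599 Matrin 3-only sites. The SATB1 ones were mostly bare: 74.1% (65.3 to 81.3) overlapped neither H3K27ac nor CTCF, 58.9% lay outside genes and 2 of 112 at a gene end. The 2 were TMEM225B and SLC8A3, a sodium-calcium exchanger. The site at TMEM225B, a transmembrane protein, spanned 17541 bp on chromosome 7 (99581898 to 99599438) and ranked 70 and 71 in the SATB1 lists. At SLC8A3 on chromosome 14 (70190533 to 70193446) the ranks were 1458 and 1342. The highest such site lay outside genes on chromosome 2 (83342518 to 83344545), ranked 14 in both SATB1 lists with maxima of 172 and 167, and its nearest gene, SUCLG1, ended 1079 kb away.

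The 39 sites of Matrin 3 missing from both SATB1 lists were the reverse in kind, with 31 (79.5%, 64.5 to 89.2) at gene ends and 37 in a CTCF region. The highest at gene ends were USF3, PSAT1, NDUFS8, ENPP4, LIAT1, HDAC11, RNGTT and C16orf87. PSAT1, an enzyme of serine synthesis, ranked 457 and 162 on chromosome 9 (78296456 to 78298220). USF3, a transcription factor, ranked 334 and 116 on chromosome 3 (113695923 to 113697388), and NDUFS8, another subunit of complex I, ranked 615 and 208 on chromosome 11 (68030079 to 68031400). HDAC11, a histone deacetylase, ranked 891 and 607 on chromosome 3 and was the only one of the 8 without an H3K27ac region. The others ranked between 308 and 997. Above them stood 2 sites inside LOC102724250 on chromosome 1 (633489 to 634497 and 629839 to 630386), ranked 6 and 22 in Matrin 3 replicate 1 and 1 and 2 in replicate 2. That stretch is known to hold a nuclear copy of mitochondrial DNA, so reads of the copies cannot be told apart and these 2 sites are uncertain.

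Of the 19974 protein-coding genes, 914 (4.58%) and 898 (4.5%) had a top SATB1 peak at an end and 2105 (10.5%) and 1581 (7.92%) a top Matrin 3 peak. Both SATB1 lists marked 790 genes (3.96%), both Matrin 3 lists 1222 (6.12%) and all 4 lists 490 (2.45%). The 490 were 62.0% of the SATB1 genes and 40.1% of the Matrin 3 genes. A further 170 genes (0.851%) were marked by both SATB1 lists and no Matrin 3 list, and 631 (3.16%) by both Matrin 3 lists and no SATB1 list. These shares are the background for the gene groups that follow, which are described by counts with no test.

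A few of the listed T cell genes were marked in both SATB1 lists and none in both Matrin 3 lists. Over all coding genes the shares were 3.96% and 6.12%. Of 20 genes of T cell receptor signalling, 3 were marked in both SATB1 lists and 0 in both Matrin 3 lists. Among the 3 were CD2, an adhesion receptor, and CD3E, a chain of the receptor complex, which also had a top peak of Matrin 3 replicate 2. CD2 ranked 991 and 916 for SATB1 and 3389 and 1211 for Matrin 3. CD3E ranked 1846 and 1455 against 4019 and 746. Of 20 T-lineage transcription factors the counts were 3 and 0, for LEF1, BCL11B and TOX. LEF1, an effector of Wnt signalling, ranked 992 and 1339 against 4271 in Matrin 3 replicate 1. BCL11B, which holds cells in the T lineage, ranked 1664 and 1234 against 3662. TOX, a factor of T cell development, ranked 1106 and 950 against 18582. Of 16 thymocyte surface and recombination genes the counts were 2 and 0, for the CD1B and CD1C genes of the lipid-presenting CD1 family, which ranked 618 and 595, and 1103 and 703, against 12242 for both in Matrin 3 replicate 1. These counts are small, too few to set against the background shares, and moved with the window. With gene ends within 1 kb the SATB1 count of transcription factors was 1, and within 5 kb the thymocyte counts were 5 and 1. Whole lists gave another picture for each Matrin 3 library. Of the 20 receptor signalling genes 15 were marked in each whole SATB1 list, 18 in that of Matrin 3 replicate 1 and 2 in replicate 2. Of the 20 transcription factors the whole lists marked 11, 10, 12 and 0, and of the 16 thymocyte genes 12, 12, 12 and 0. Of 12 B cell markers only IGLL1, a surrogate light chain, was marked in both SATB1 lists (ranks 1465 and 1677), and of the myeloid, epithelial and neuronal markers 0 were marked in both lists of either protein.

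Genes of RNA splicing and hnRNP proteins were marked by both proteins in like numbers, though the shares over all coding genes were 3.96% and 6.12%. Of 30, both SATB1 lists marked 7 (23.3%) and both Matrin 3 lists 6 (20%). In all 4 lists were 5: HNRNPA1, HNRNPA2B1, HNRNPD, HNRNPL and DDX17, which bind or unwind RNA. The other 2 of SATB1 were the splicing factors PTBP1 (606 and 446) and SRSF2 (825 and 755), each with a top peak of 1 Matrin 3 list. HNRNPA2B1, whose promoter is printed above, shares its site with CBX3 on chromosome 7 (26200175 to 26202240) and ranked 88 and 88 for SATB1 and 121 and 190 for Matrin 3. HNRNPL ranked 473 and 419 against 50 and 117. SFPQ, a paraspeckle protein, was marked by both Matrin 3 lists alone (1129 and 1914, against 5859 and 5792 for SATB1).

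Of 24 genome architecture genes both SATB1 lists marked 5 (20.8%, beside 3.96% of all coding genes). Both Matrin 3 lists marked 4 (16.7%, beside 6.12%). The counts are small. CTCF, CBX5 (heterochromatin protein HP1 alpha, at the same site as HNRNPA1) and ZNF143 (a promoter-binding zinc finger protein) were in all 4 lists. CTCF ranked 413 and 375 against 136 and 422, and ZNF143 187 and 147 against 231 and 264. CHD4, a chromatin remodeller (341 and 443), and NCAPD2, a condensin subunit (1209 and 876), were marked by SATB1 alone, at ranks 2588 and 2503 in Matrin 3 replicate 1. STAG1 was marked by Matrin 3 alone (675 and 347), with SATB1 peaks just below the limit of the top lists (2143 and 2454). Of 30 lamina and nuclear matrix genes the counts were 1 (3.33%) and 4 (13.3%), also small. NUP98, a nuclear pore protein, was in all 4 lists (1781 and 1871 against 70 and 293), while TPR (617 and 240) and EMD (emerin of the inner nuclear membrane, 1277 and 1132) were marked by Matrin 3 alone. LMNB1, lamin B1, was the other Matrin 3 gene (690 and 849), with a top peak of SATB1 replicate 1 as well.

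Of 20 repair genes the counts were 3 and 3, with the damage kinase ATM and the ligation factor XRCC4 in all 4 lists and TP53BP1 in both Matrin 3 lists alone. Of 20 ribosomal protein genes the counts were 1 (RPL3) and 1 (RPL7), of 20 immediate-early genes 1 and 1 (JUN, in all 4 lists) and of 20 leukaemia genes 1 (LMO2) and 1 (MYC). In each of these lists at most 3 genes were marked, too few to set against the background shares.

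Neither protein's own gene held a top peak of the other. The SATB1 gene (chromosome 3, 18345377 to 18445592) held 12 and 13 SATB1 peaks covering 35.1 and 36.1 kb, the best at ranks 1180 and 1332 and inside the gene. Matrin 3 replicate 1 held 7 peaks there, covering 9.58 kb with a best rank of 9717, and replicate 2 held 0. The MATR3 gene (chromosome 5, 139274101 to 139331677) held 0 and 1 SATB1 peaks and 2 and 0 Matrin 3 peaks, none of them a top peak.

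Some genes of small nuclear RNAs, the RNA parts of the spliceosome and related particles, were among the highest SATB1 sites. This group was chosen after its values were seen. Of 154 annotated snRNA genes, 24 (15.6%) had a top peak within 2 kb in both SATB1 lists and 2 (1.30%) in both Matrin 3 lists. Over snRNA, tRNA, snoRNA and miRNA genes together the shares were 3.02% and 1.19%. By library the counts were 25 and 24 for SATB1 and 4 and 5 for Matrin 3. The 24 ranked from 4 to 1028 in SATB1 replicate 1 (median 168) and from 3 to 1510 in replicate 2 (median 170), and 7 of them stood within the highest 100 of each list. RNU1-1, for the U1 RNA, was among the lower ones, at 858 and 1510. Those named next were chosen from the higher ones. RNU5B-1, a U5 RNA of the major spliceosome, ranked 4 and 3 for SATB1 and 2099 and 1970 for Matrin 3. RNU5E-1 ranked 5 and 7 against 1866 in Matrin 3 replicate 1, with no peak in replicate 2. RNU2-2, a U2 gene, ranked 7 and 9 against 1905 and 388. RNU11 of the minor spliceosome, whose site overlaps the end of TAF12, ranked 6 and 10 against 4275 in replicate 1, and RNU12 ranked 122 and 119 against 2802 and 2070. All 5 stood higher in the order of SATB1 than in that of Matrin 3, which follows largely from how they were chosen. The whole lists marked 33 and 32 snRNA genes for SATB1, 32 for Matrin 3 replicate 1 and 5 for replicate 2. Of the 24 genes, 22 had a peak in the whole list of Matrin 3 replicate 1, at ranks from 1517 to 13771, and 5 had one in replicate 2. RNU1-1 and RNVU1-30 had none in either. The 24 genes lay at 22 sites, and near-identical copies (the RNVU1 and RNU6 genes among them) cannot be told apart by short reads. For tRNA genes the counts were 47 (10.6%) and 6 (1.35%) of 443, at 30 and 6 sites, with the same limit. For snoRNA genes they were 20 and 16 of 1196 and for miRNA genes 21 and 20 of 1911, with no such gap.

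Replication-dependent histone genes, which are transcribed in S phase and lie in clusters, gave a like picture and were also chosen after their values were seen. Of 68, both SATB1 lists marked 24 (35.3%, beside 3.96% of all coding genes) and both Matrin 3 lists 0 (beside 6.12%). By library the counts were 26 and 26 for SATB1, 0 for Matrin 3 replicate 1 and 5 for replicate 2. The 5 genes of Matrin 3 replicate 2 went against the rest. The site of H3C2 and H2AC4 ranked 200 in that list, and 1271 and 1545 in the SATB1 lists. H2BC3 and H3C3 ranked 1118 there, with no peak in either whole SATB1 list. H4C16 ranked 1388 there, against 5011 and 4146 for SATB1. By family the SATB1 counts were 10 of 17 H2A, 9 of 18 H2B, 4 of 13 H3, 1 of 5 H1 and 0 of 15 H4 genes. H2BC17, printed above, shares its site with H2AC17 and H3C12 and ranked 387 and 410 for SATB1 and 6257 in Matrin 3 replicate 1. H2BC11 and H2AC11 ranked 491 and 431 against 6214. Whole lists marked 54 and 55 of the 68 for SATB1, 46 for Matrin 3 replicate 1 and 5 for replicate 2. Neighbouring genes share peaks, and their coding sequences are near copies of each other, so the count is not one of independent sites.

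**Figure D4:**
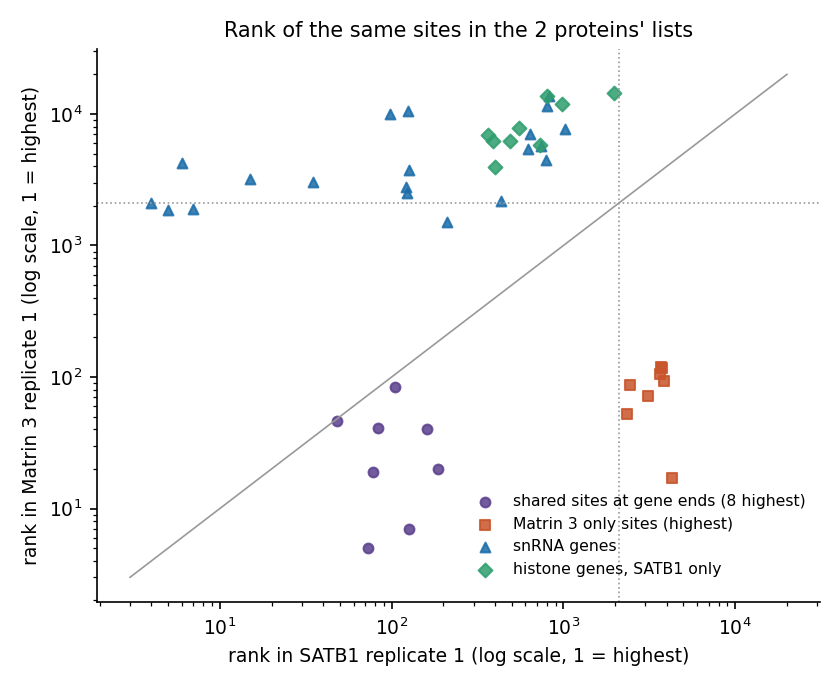
Rank of a site in SATB1 replicate 1 (x axis) and in Matrin 3 replicate 1 (y axis), both on log scales with 1 the highest, for sites with a peak in both whole lists: 20 sites of snRNA genes, 9 of histone genes, the 8 shared sites named above and 8 of the highest Matrin 3-only sites. Dotted lines mark rank 2105 and the grey line equal ranks. The snRNA and histone sites lie above the line, Matrin 3-only sites below and to the right. These 3 sets were chosen by their place in the lists, so their side of the line follows largely from that choice.

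The promoters under the top peaks of both proteins held a CCAAT box more often than those under H3K27ac or CTCF. Promoter windows are the stretches of 300 bases around RefSeq starts of coding genes, 22012 in all, of which 34.7% held the box. Under the top peaks the share was 57.0% and 56.1% for SATB1 and 56.0% and 57.7% for Matrin 3. It was 35.8% and 35.6% for H3K27ac and 38.2% to 38.4% for CTCF, so at this number of peaks all 4 libraries stood above all 5 others. H3K27ac and CTCF peaks are wider, with medians of 5967 to 6063 bp and 3713 to 4071 bp. With windows of 500 bp on the maxima the shares were 58.3% to 62.5% for the 4 libraries and 42.0% to 44.4% for the 5 others. Base composition was compared as well. Among windows of 60% to 65% GC the shares were 61.7% to 65.8% against 40.7% to 46.5%, and the 4 libraries stood above the 5 others in each of 5 classes of GC content. The motifs were picked after the files had been seen, the SATB1 and Matrin 3 sets share promoters, and a match is a stretch of letters, not a bound site.

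**Figure D5:**
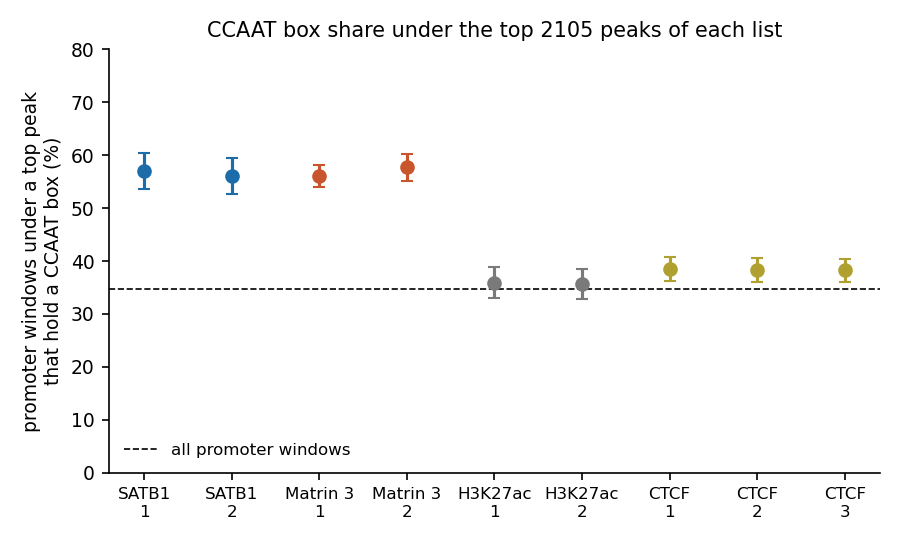
Share of the promoter windows under the top 2105 peaks of each library (y axis, percent) that hold a CCAAT box on either strand; points are single libraries with 95% Wilson intervals, and the dashed line is the share of all windows (34.7%). The SATB1 and Matrin 3 libraries lie between 56.0% and 57.7%, and the H3K27ac and CTCF libraries between 35.6% and 38.4%.

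By class, the box was commonest at shared promoters, with 69.0% (64.5 to 73.2) of 432 windows. It was in 58.6% (54.6 to 62.4) of 606 Matrin 3-only and 41.6% (33.3 to 50.4) of 125 SATB1-only windows. The GC box was in 81.7%, 82.5% and 47.2%, beside 56.3% of all windows. The TATA box went the other way, with 2.78% of shared, 1.98% of Matrin 3-only and 24% of SATB1-only windows, beside 9.49% of all. Its letters were counted anywhere in the window and on either strand, not at a set distance from the start. The octamer was in 1.39%, 1.98% and 11.2%, beside 1.65% of all. Histone genes made much of the SATB1-only values: 12 of its 14 octamer windows and 16 of its 30 TATA windows were theirs. Among the 103 other SATB1-only windows the octamer was in 1.94%, the TATA box in 13.6% and the CCAAT box in 29.1%, the last below the share of all windows. Median GC content was 62.5% in shared, 66.3% in Matrin 3-only and 55% in SATB1-only windows.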

How the data were processed

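Positions and signal were used as deposited: each library came with 1 peak list, in which the authors gave the total and the maximum signal of each peak as whole numbers, with no scaling recorded. Per the submitters' processing notes the tools were Trim Galore, Bowtie2, SAMtools, deepTools and SEACR, with MACS2 for the SATB1, H3K27ac and CTCF samples, on GRCh38. Versions, filters and any control library are not given in the sources used here. A threshold of 0.007 is named for the SATB1 lists by their deposited names and none for the Matrin 3 lists. Calling may thus have differed between the proteins, which equal numbers of top peaks only partly meet.

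Of 56667 peaks in the 4 lists, 60 lay off chromosomes 1 to 22 and X and were left out. Peaks were ranked by maximum signal, with ties broken by total signal and then position. Matrin 3 replicate 2 sets the number of peaks and enters with its whole list. Genes were the 19974 protein-coding entries of RefSeq for GRCh38.p14, given without strand. Starts and promoter sequence came from RefSeq's promoter table of the same build, which matched 15812 of them. Peak sequence was not analysed here.

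Library values were compared by two-sided exact permutation tests. The 95% Wilson intervals of shares describe counting error alone. Members and gene lists were chosen with earlier results of these data known. The genes named were up to 8 of lowest mean rank at gene ends per class (for separate sites, those missing from the other whole lists), up to 4 per gene list, and SATB1 and MATR3; the rule gave 2 for SATB1, and the text names further list members and chosen sites. The values of 1 gene of the receptor signalling list are not reported here. Functions were tested on simulated lists with planted overlap. Software was pandas 2.3.3, numpy 2.4.6, matplotlib 3.10.9 and scipy 1.17.1 under Python 3.11.15. Positions are 1-based.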

Additional observations from a re-analysis of the deposited data

How the results depend on the processing

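The SATB1 minus Matrin 3 difference in gene-end share kept its sign under every alternative run, from -52.1 percentage points with the top 500 peaks to -15.5 with the top 14726 of the 3 longer lists, and without 1 library it ran from -45.1 to -26.4. The width difference kept its sign (54.3 to 1069 bp; without 1 library 87 to 1028 bp). The H3K27ac difference ran from -6.10 without Matrin 3 replicate 2 to 12.6 without replicate 1, and the CTCF difference from -17.9 without Matrin 3 replicate 2 to 2.87 without replicate 1; both reversed, and no other alternative turned either. No test could pass 0.05 in this design.

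The overlap between the proteins (30.8%) moved with the number of peaks, to 17.2% with the top 500, 23.1% with the top 1000, 52.7% with whole lists and 60.6% with the top 14726 of the 3 longer lists. It was 27.4% ranked by total signal, 19.0% where at least 50% of both peaks had to overlap, and 28.6% to 33.0% without 1 library.

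Shared sites numbered 62, 173, 1466 and 8160 with the top 500, top 1000, whole lists and the top 14726 of the 3 longer lists, and 511 to 628 without 1 library. SATB1-only sites numbered 353, 644, 2237 and 4579 in the same order, 112 where no peak of the whole other list was allowed, and 1251 to 1335 without 1 library. Matrin 3-only sites numbered 216, 359, 157 and 5248, 39 under the stricter rule, and 643 to 1446 without 1 library: 1446 without Matrin 3 replicate 1 and 1343 without replicate 2, since 1 list is then enough. The gene-end share of shared minus SATB1-only sites (62.7 points) was 67.3 with the top 1000, 52.7 ranked by total signal, 32.3 with the top 14726 of the 3 longer lists, and 51.4 to 63.3 without 1 library. The snRNA gene difference (20 genes) kept its sign, from 5.50 to 21.

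The 28 gene-list counts (14 lists, each protein) stayed within 1.5 times of the value given in 25 cases with gene ends within 1 kb, in 20 within 5 kb and in 12 with whole lists.

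Matrin 3 replicate 1 overlapped 32.9% of SATB1 replicate 1 and 33.2% of replicate 2. The SATB1 lists are so alike that these overlaps cannot tell whether replicate numbers pair the libraries. With the replicate number as a block and the SATB1 lists as 2 samples, the differences stayed at -35.7 points for gene ends (exact permutation p = 0.5), 557.5 bp for width, 3.25 points for H3K27ac and -7.53 points for CTCF. The top 14726 setting, and all settings for the gene-end gap, snRNA genes and the CCAAT box, were chosen after the data were seen. Windows of 500 bp fix the width, so that value was not run. Unscaled signal and unknown depth limit all ranks to a single list.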
